A study of Mus musculus with 3 samples.

Results

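Transporters of the solute carrier superfamily that carry amino acids, glucose or monocarboxylates were compared between mouse embryoid bodies with a C-terminally truncated Dido3 protein and wild type embryoid bodies. Members were chosen by a rule on gene names: every gene that the array's annotation calls Slc1, Slc2, Slc3, Slc6, Slc7, Slc16, Slc36, Slc38 or Slc43 followed by "a" and a number, without Slc7a3, Slc2a1, Slc1a3 and Slc38a4, which the rule leaves out by name. This gave 82 genes of 30458 on the array, read by 114 of 39429 probes and falling into 9 families. The probe descriptions call all 82 solute carriers. The mutant samples carry the genotype that the labels name Dido3deltaCT, from the locus Dido1, and the wild type samples are labelled as controls. Both were grown for 10 days in suspension on low-attachment plates in the absence of LIF, the cytokine that keeps mouse embryonic stem cells self-renewing, so all samples share the withdrawal of LIF. There were 3 mutant and 3 wild type samples, hybridised as 3 pairs on 3 arrays with a dye for each genotype. The mutant samples of replicates 1 and 3 were labelled with Cy3 and that of replicate 2 with Cy5. The labels call the samples biological replicates without naming clones or lines, so the p-values measure the spread between these samples, which may in part be technical, and genotype cannot be told apart from any difference between lines.

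Cells import most nutrients through such carriers, because charged and polar molecules cross the plasma membrane poorly. Amino acid carriers work as sodium- or proton-coupled importers, as exchangers that trade an internal amino acid for an external one, or as facilitators, and many exchangers need a glycoprotein heavy chain to reach the cell surface. Glucose carriers of the Slc2 family let hexoses flow down their gradient, and Slc16 carriers move lactate, pyruvate and related molecules, often with the partner protein basigin or embigin. Pluripotent mouse cells are known for a high demand for glucose and glutamine, and yolk sac endoderm for nutrient uptake.

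Over the 3 arrays 46.5% to 62.5% of spots were well above background in mutant samples and 48.5% to 74.4% in wild type samples. On each array the sample in Cy5 had the higher share: 74.4% against 62.3% on replicate 1, 62.5% against 48.5% on replicate 2 and 63.3% against 46.5% on replicate 3. Since the mutant was in Cy3 on replicates 1 and 3, counts of samples above background by genotype may in part follow the dye, which was not tested. The small number of arrays limits the precision of every value below. A ratio is log2 of mutant over wild type within an array, so that a positive value means more signal in the mutant, and a signal is the log2 brightness of a genotype's channel after normalization. Signals of different probes are not comparable with each other. A gene was tested if the 3 mutant samples, the 3 wild type samples or both all had a probe of it well above background, and 46 of the 82 members and 15428 genes in all passed. The probe used for Dido1 itself had ratios of 1.57, 2.16 and 1.48, and since the labels leave out where the truncation lies, this probe checks nothing about the genotypes. Replicate 2 stands apart: over all genes tested its ratios correlated at 0.151 with those of replicate 1 and at 0.18 with those of replicate 3, while replicates 1 and 3 correlated at 0.879. It is the array with the mutant in Cy5, so that replicate and its dye orientation cannot be told apart, and with unequal swaps a dye effect does not cancel in the means.

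Sequence upstream of the members was read for the amino acid response element bound by Atf4 with C/EBP factors, since this factor is known to control amino acid carriers when amino acids run short. The motif searched was TGATGCAA on either strand, in RefSeq windows of 300 bases (250 before to 50 after the start of a gene, build GRCm38.p6). It stood in 4 of 77 windows of members (5.19%) and in 294 of 32851 windows of all genes (0.895%). The 4 windows belong to 3 of the 58 members with an entry, as Slc7a7 has the same motif in the windows of 2 annotated starts, and 24 members had no entry. The lines below give 70 bases before to 10 bases after the start of each of these 3 genes, all on the minus strand, with the motif or its reverse complement in capitals. These 3 genes are all the members in which the motif was found. In the arrays Slc7a7 was among the members nearest to the threshold, Slc1a4 differed in sign between arrays, and Slc7a11 was hardly above background.
Slc7a7, chr14:54417935-54418014: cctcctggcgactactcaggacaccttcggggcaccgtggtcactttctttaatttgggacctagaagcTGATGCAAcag
Slc1a4, chr11:20332704-20332783: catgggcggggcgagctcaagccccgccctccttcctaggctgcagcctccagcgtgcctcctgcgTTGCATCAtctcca
Slc7a11, chr3:50443604-50443683: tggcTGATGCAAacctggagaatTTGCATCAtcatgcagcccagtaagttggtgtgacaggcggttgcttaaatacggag
A match is a description of these letters, and binding was not measured.

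No member passed the test. With limma and Benjamini-Hochberg adjustment over all genes, 0 of the 46 tested members were called at an adjusted p of 0.05, where 46 of the 15428 genes (0.298%) were, 32 of them higher and 14 lower in the mutant. The higher genes made up 69.6% of those calls, against 57.1% with median centring and 57.8% with scaling between arrays. The members' count of 0 became 1 higher and 2 lower with the scanner's processed signals (6.52% of members, against 2.46% of all genes), 7 and 12 with a dye term (41.3% against 30.8%) and 8 and 8 without replicate 2 (34.8% against 47.3%). The fit without replicate 2 cannot separate genotype from dye. At an unadjusted p of 0.05 there were 14 members, 6 higher and 8 lower, or 30.4% of those tested. The same rule took 22.7% of all genes, 11.4% higher and 11.3% lower. The members lay evenly around 0: 23 ratios were positive and 23 negative, with a median of -0.01 against 0.03 over all genes tested, and a range of -1.80 to 1.46. The median size of the ratio was 0.37 among members and 0.43 over all genes, and 11 members (23.9%) had a mean ratio beyond 1 in either direction, as had 16.7% of all genes. At an adjusted p of 0.1, a looser rule, 3 of the 46 tested members passed (6.52%, against 8.02% of all genes). These members nearest to the threshold were Slc3a1 and Slc7a7 with positive ratios and Slc38a1 with a negative one.

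**Figure D1:**
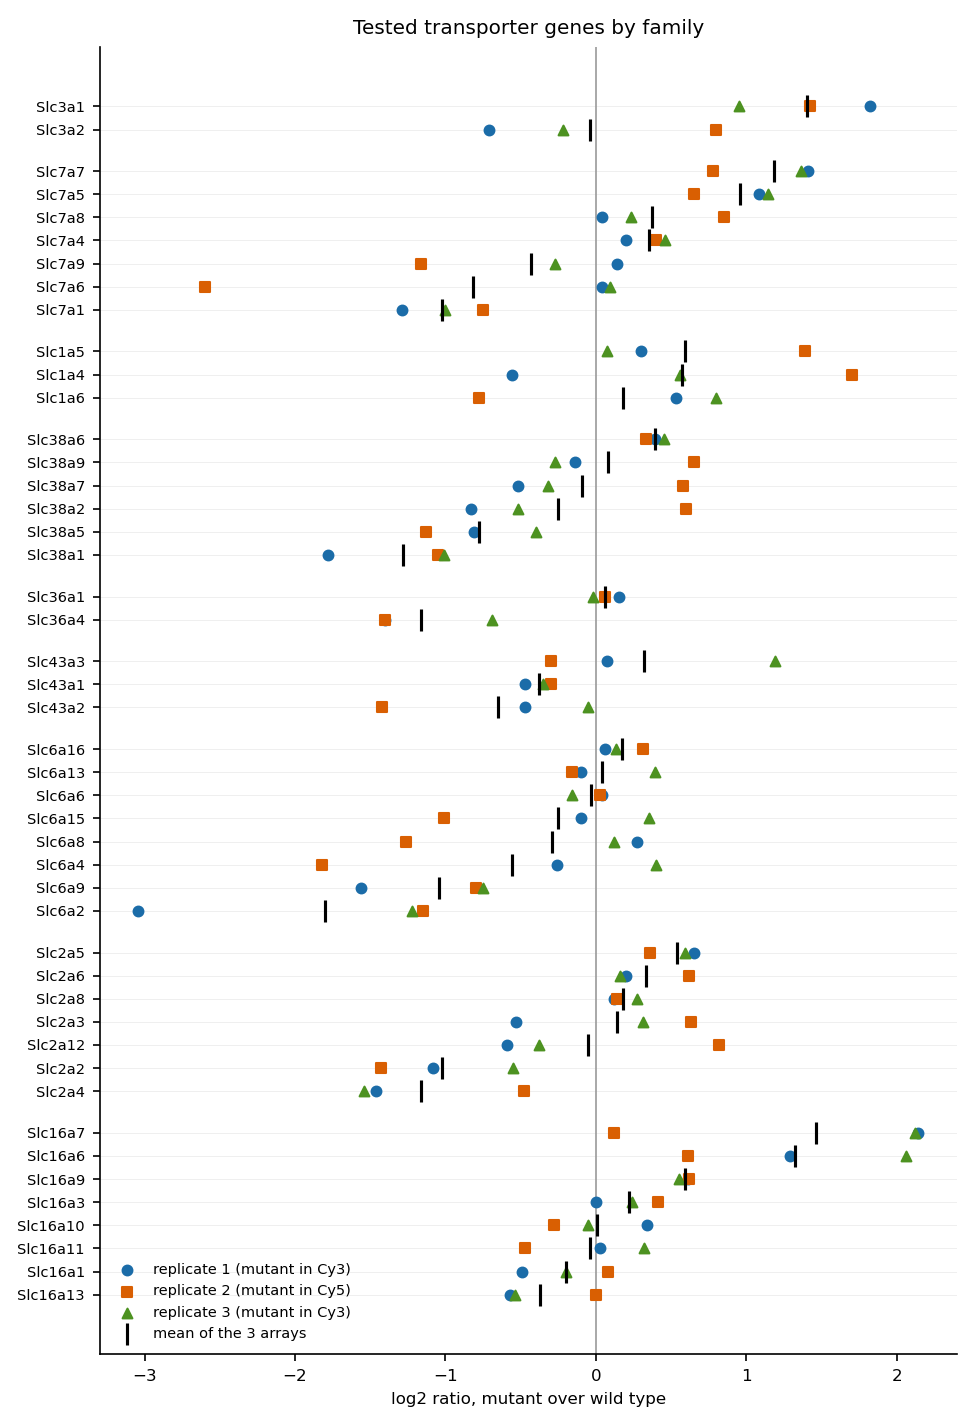
Each row is a tested member, grouped by family, and the horizontal axis is the log2 ratio of mutant over wild type on each of the 3 arrays, with a black bar at their mean. Means run from -1.80 (Slc6a2) to 1.46 (Slc16a7), and tested members of each family except Slc1 lie on both sides of 0.

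The heavy chains of the Slc3 family and their light chains of the Slc7 family form the heteromeric amino acid exchangers. Slc3a1 encodes rBAT, the heavy chain of the cystine and dibasic amino acid carrier. Its signals were 8.07, 7.75 and 7.48 in mutant samples, against 6.25, 6.32 and 6.52 in wild type samples. All mutant samples lay above all wild type samples, and the probe was well above background in 3 of 3 mutant but in 1 of 3 wild type samples. The mean ratio was 1.40 ± 0.28 (SE, n = 3; 2.64-fold), the smallest p among the members, with a limma adjusted p of 0.0764. Slc3a1 passed the filter through its mutant samples alone, so these values rest on wild type signals mostly near background. With both genotypes required above background it was not tested, and under the other alternatives its mean ratio ran from 0.91 to 3.17. Slc7a9, its light chain, had ratios of 0.14, -1.16 and -0.27 and a mean of -0.43 ± 0.33, so the genes of this pair did not show the same sign.

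Slc3a2 encodes CD98, the heavy chain shared by the other light chains tested here. Its signals were 11.94, 12.71 and 12.13 in mutant samples, against 12.65, 11.91 and 12.35 in wild type samples. The groups overlapped, the sign differed between arrays, and the mean ratio was -0.04 ± 0.36 (limma adjusted p = 0.957). Its light chains spread from negative to positive ratios. Slc7a7, the y+LAT exchanger that lets arginine and lysine leave epithelial cells, had signals of 14.23, 13.75 and 14.25 in mutant samples, against 12.82, 12.97 and 12.89 in wild type samples. The genotypes were apart with little spread inside each, and the ratio was 1.18 ± 0.26 (2.27-fold), with a limma adjusted p of 0.0907.

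Slc7a5, the LAT exchanger for leucine and other large neutral amino acids, had signals of 9.60, 9.01 and 9.39 in mutant samples, against 8.52, 8.36 and 8.25 in wild type samples. These did not overlap, and the ratio was 0.96 ± 0.25 (1.94-fold, limma adjusted p = 0.117). The other probe of this gene did not show it, as described with the probes below. Slc7a8, a related exchanger of small and large neutral amino acids, had ratios of 0.04, 0.85 and 0.23 with overlapping groups. Slc7a6, the other y+LAT exchanger, had ratios of 0.04, -2.60 and 0.09. On replicate 2 its wild type signal stood far above those of the other wild type samples, at 7.99 and 8.34, while the mutant samples lay between 8.03 and 8.43. Its mean of -0.82 ± 0.60 became 0.07 without replicate 2.

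The cationic carriers of the Slc7 family work without a heavy chain. Slc7a1, the main arginine and lysine importer of most cells, had signals of 11.96, 10.97 and 11.05 in mutant samples, against 13.26, 11.72 and 12.05 in wild type samples. Within each array the mutant was lower, although the mutant sample of replicate 1 lay above a wild type sample of another array. The ratio was -1.02 ± 0.25 (2.02-fold lower, limma adjusted p = 0.108). Slc7a4, a relative of these carriers, had ratios of 0.20, 0.40 and 0.46 and overlapping groups. Slc7a11, by contrast a heteromeric exchanger of cystine and glutamate, is the gene with both copies of the motif above. It was well above background in 0 of 3 mutant and 1 of 3 wild type samples and was not tested. Its ratios of 0.31, 0.01 and 0.09 were those of a probe near background.

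Of the sodium-coupled Slc1 family 3 of 6 members were tested. Slc1a5, the ASCT glutamine exchanger, had signals of 9.39, 10.45 and 9.30 in mutant samples, against 9.08, 9.06 and 9.23 in wild type samples. The groups did not overlap, but most of the mean ratio of 0.59 ± 0.34 (limma adjusted p = 0.374) came from replicate 2, with 1.39 against 0.30 and 0.07. Slc1a4, the related carrier of alanine, serine and cysteine, had signals of 13.36, 12.72 and 12.16 in mutant samples, against 13.92, 11.03 and 11.60 in wild type samples. The arrays disagreed in sign, with ratios of -0.56, 1.70 and 0.56. Slc1a6, a glutamate carrier known from the cerebellum, also had both signs, at 0.53, -0.78 and 0.80. Slc1a1, the widely expressed glutamate and cysteine importer, was above background in 2 of 3 samples of each genotype and was not tested, with ratios of 0.35, 1.10 and 0.37.

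System A and N carriers of the Slc38 family import glutamine, alanine and serine with sodium. Slc38a1 had signals of 11.83, 11.60 and 11.74 in mutant samples, against 13.60, 12.65 and 12.74 in wild type samples. The genotypes did not overlap, and the ratio was -1.28 ± 0.28 (2.42-fold lower, limma adjusted p = 0.0882). Slc38a2, the system A carrier that cells induce when amino acids are scarce, had ratios of -0.83, 0.60 and -0.52 with overlapping groups (mean -0.25 ± 0.36). Leaving out replicate 1 gave 0.04, and leaving out replicate 2 gave -0.67 with an adjusted p of 0.035. The probes of these neighbouring genes lie 111.6 kb apart on chromosome 15. Slc38a5, a system N carrier that also exchanges protons, had signals of 7.57, 7.25 and 7.64 in mutant samples, against 8.38, 8.39 and 8.04 in wild type samples. These were apart, with a ratio of -0.78 ± 0.27 (limma adjusted p = 0.18).

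Some carriers of this group sit in lysosomes. Slc38a9, the arginine-sensing carrier that signals to mTORC1, had ratios of -0.14, 0.65 and -0.27, and Slc38a7, a lysosomal glutamine exporter, had -0.52, 0.58 and -0.32. Both were positive on replicate 2 and negative on the other arrays. Slc36a1, a proton-coupled carrier also found on lysosomes, had a mean ratio of 0.06 ± 0.23 and was well above background in 2 of 3 mutant and 3 of 3 wild type samples. Slc36a4, its relative that carries proline and tryptophan, had signals of 6.59, 7.22 and 6.49 in mutant samples, against 7.99, 8.62 and 7.18 in wild type samples. The highest mutant sample lay just above the lowest wild type sample, and the ratio was -1.16 ± 0.27 (2.24-fold lower, limma adjusted p = 0.1). This probe was well above background in 2 of 3 mutant and 3 of 3 wild type samples, so it passed the filter through the wild type alone. The other probe of this gene had a mean ratio of -0.16, as described with the probes below.

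The Slc43 family holds facilitators. Slc43a2, a LAT facilitator for leucine and other essential amino acids, had signals of 8.03, 8.0 and 8.31 in mutant samples, against 8.51, 9.42 and 8.37 in wild type samples. They were apart by a narrow margin on replicate 3, and the ratio was -0.65 ± 0.34 (limma adjusted p = 0.333). Slc43a1, with the same substrates, had ratios of -0.47, -0.30 and -0.35 but overlapping groups, and Slc43a3, known as a nucleobase carrier, had 0.07, -0.30 and 1.19.

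The Slc6 family couples neurotransmitters, amino acids and osmolytes to sodium and chloride, and it had the most members below the filter: 8 of 18 were tested. Slc6a2, the noradrenaline carrier, had signals of 6.13, 6.62 and 6.69 in mutant samples, against 9.17, 7.78 and 7.91 in wild type samples. It was well above background in 0 of 3 mutant and 3 of 3 wild type samples, the only member used with its brightest probe for which this held, so its difference is a bound: at least 3.06-fold lower in the mutant (limma adjusted p = 0.11). Replicate 1 had the ratio farthest from 0, at -3.04 against -1.15 and -1.22, and without it the bound was 2.04-fold. Slc6a9, the glycine carrier GlyT, had signals of 7.31, 7.39 and 8.36 in mutant samples, against 8.87, 8.19 and 9.11 in wild type samples. Within each array the mutant was lower, the mutant sample of replicate 3 lay above the wild type sample of replicate 2, and the ratio was -1.04 ± 0.28 (2.05-fold lower, limma adjusted p = 0.124).

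The remaining Slc6 members were nearer to 0 or differed between arrays. Slc6a6, the taurine carrier, was at 14.24, 14.28 and 14.27 in mutant samples, against 14.20, 14.25 and 14.43 in wild type samples (ratio -0.03 ± 0.23). Slc6a8, the creatine carrier on the X chromosome, had ratios of 0.27, -1.26 and 0.12, and its mean of -0.29 became 0.19 without replicate 2. Slc6a4, the serotonin carrier, had -0.26, -1.82 and 0.40, and Slc6a15, a carrier of branched-chain amino acids and proline, had -0.10, -1.01 and 0.35. In these 3 genes replicate 2 had the ratio farthest from 0. The GABA carrier Slc6a13 had a mean ratio of 0.04 and the orphan carrier Slc6a16 one of 0.17.

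Among the hexose carriers of the Slc2 family 7 of 11 members were tested. Slc2a4, the insulin-regulated glucose carrier of muscle and fat, had signals of 7.29, 7.53 and 8.04 in mutant samples, against 8.76, 8.02 and 9.58 in wild type samples. The mutant was lower on each array, by less on replicate 2, and the groups overlapped by a narrow margin. The ratio was -1.16 ± 0.31 (2.24-fold lower, limma adjusted p = 0.123). Slc2a2, the low-affinity glucose carrier of liver and yolk sac endoderm, had signals of 6.18, 7.03 and 6.56 in mutant samples, against 7.25, 8.45 and 7.10 in wild type samples. The genotypes did not overlap, although the probe was well above background in 1 of 3 mutant and 3 of 3 wild type samples. Its ratio was -1.02 ± 0.28 (2.02-fold lower, limma adjusted p = 0.127). Slc2a2 passed the filter through its wild type samples alone, so these values rest on mutant signals mostly near background.

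Slc2a3, the high-affinity glucose carrier of neurons and early embryos, had signals of 13.55, 14.40 and 13.57 in mutant samples, against 14.08, 13.77 and 13.26 in wild type samples. The groups overlapped and the arrays differed in sign, with a mean of 0.14 ± 0.32 (limma adjusted p = 0.822). Slc2a5, the fructose carrier, had signals of 7.56, 7.54 and 7.32 in mutant samples, against 6.92, 7.17 and 6.73 in wild type samples. These were apart, at a ratio of 0.54 ± 0.24 (limma adjusted p = 0.263). The intracellular hexose carriers Slc2a6 and Slc2a8 had mean ratios of 0.33 and 0.18, each positive on all 3 arrays, and Slc2a12, a further glucose carrier, had -0.05 with both signs.

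The Slc16 family held the highest mean ratio of the members tested. Slc16a7, the high-affinity pyruvate and lactate carrier MCT2, had signals of 15.89, 13.41 and 14.46 in mutant samples, against 13.75, 13.29 and 12.34 in wild type samples. Replicates 1 and 3 had ratios of 2.14 and 2.12 and replicate 2 had 0.12, so the groups overlapped, and the mean was 1.46 ± 0.48 (2.75-fold, limma adjusted p = 0.169). Slc16a6, known in zebrafish as a ketone body exporter of the liver, had signals of 12.08, 11.67 and 12.01 in mutant samples, against 10.79, 11.06 and 9.95 in wild type samples. They did not overlap, at a ratio of 1.32 ± 0.35 (2.50-fold, limma adjusted p = 0.119).

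Slc16a9, linked to carnitine in human, was the most even across arrays of the members at an unadjusted p of 0.05, with ratios of 0.61, 0.62 and 0.55. Its signals were 7.83, 8.43 and 7.91 in mutant samples, against 7.22, 7.81 and 7.36 in wild type samples, which did not overlap by a narrow margin (limma adjusted p = 0.22). The lactate carriers best known from glycolytic cells had ratios near 0. Slc16a3, the lactate exporter MCT4, had signals of 13.62, 14.10 and 14.29 in mutant samples, against 13.62, 13.69 and 14.05 in wild type samples (ratio 0.22 ± 0.24). Slc16a1, the lactate and pyruvate carrier MCT1, had a ratio of -0.20 ± 0.25 and was above background in 1 of 3 mutant and 3 of 3 wild type samples. Slc16a10, which carries aromatic amino acids, had a mean ratio of 0.01. The neighbours Slc16a11 and Slc16a13, whose probes lie 0.6 kb apart on chromosome 11, had mean ratios of -0.04 and -0.37.

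**Figure D2:**
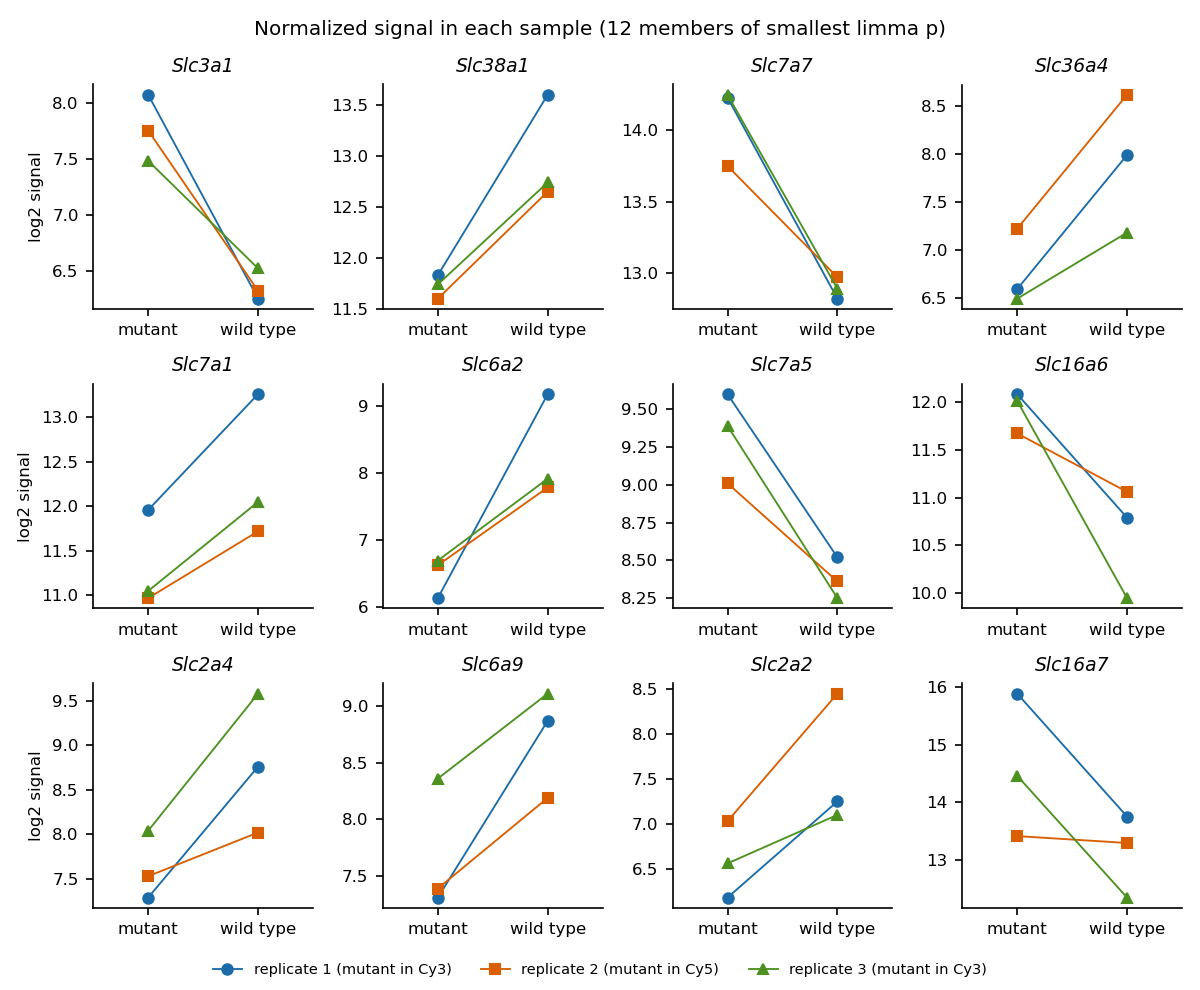
Normalized log2 signal (vertical axis, a scale of its own in each panel) of the 12 members with the smallest limma p, mutant left of wild type, with a line for each array. Every line slopes the same way within a panel, and the line of replicate 2 is nearly flat for Slc16a7 (13.41 against 13.29).

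In all, 26 of the 46 tested members had the same sign on the 3 arrays, 15 positive and 11 negative, where 44.3% of all genes did. For 12 members, 7 higher and 5 lower, the 3 mutant and the 3 wild type samples did not overlap, as was so for 21.3% of all genes. The higher ones were Slc3a1, Slc7a7, Slc7a5, Slc16a6, Slc16a9, Slc2a5 and Slc1a5, and the lower ones Slc38a1, Slc6a2, Slc2a2, Slc38a5 and Slc43a2. Of these, Slc3a1, Slc6a2 and Slc2a2 passed the filter only through the genotype in which they were higher. Medians of the larger families were 0.36 for Slc7, 0.14 for Slc2, 0.11 for Slc16, -0.17 for Slc38 and -0.27 for Slc6, each over 6 to 8 tested genes with both signs. Across the 46 members, which share arrays and are no replicates of each other, the correlation of ratios was 0.872 for replicates 1 and 3, 0.405 for replicates 1 and 2, and 0.358 for replicates 2 and 3. Replicate 2 was opposite in sign to both other arrays for 11 members (23.9%), against 39.9% of all genes.

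**Figure D3:**
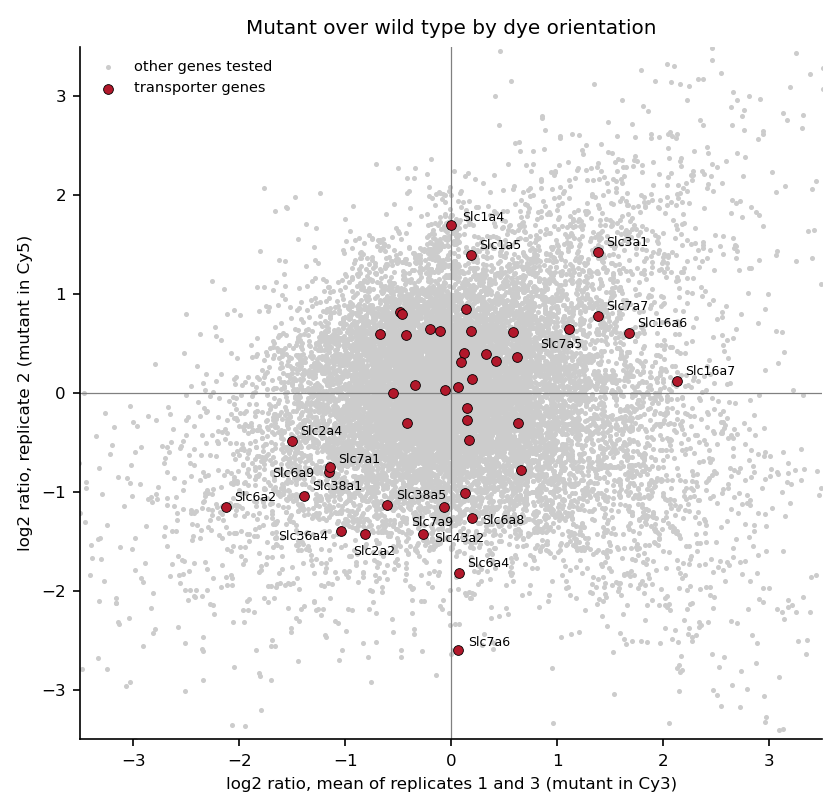
Each point is a tested gene, with the mean log2 ratio of replicates 1 and 3 (mutant in Cy3) on the horizontal axis and that of replicate 2 (mutant in Cy5) on the vertical axis; members are dark red and 125 genes, none of them members, lie outside the axes. Slc3a1 and Slc7a7 lie upper right and Slc6a2 and Slc38a1 lower left, while Slc7a6, Slc6a4, Slc1a4 and Slc1a5 lie near 0 on the horizontal axis and far from 0 on the vertical one.

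Several members were read by more than 1 probe, and for 10 of them at least 2 probes passed the filter on all arrays. In 8 of the 10 the probes had the same sign of the mean ratio. The probes of Slc6a9 gave -1.04 and -1.02, those of Slc16a9 0.59 and 0.67, and those of Slc16a6 1.32 and 1.02. The 3 probes of Slc38a1 gave -1.28, -0.79 and -0.35, all negative on each array. The probes of Slc7a5 and Slc38a6 differed by over 1, and the first 30 of the 60 bases of each, with mm9 positions from the files, show which parts of the gene they read.
Slc7a5, chr8:124405136-124405195, ratio 0.96: gtggttataatgtcttttactattgtatta
Slc7a5, chr8:124430996-124431055, ratio -0.09: tagtcttcgccacctacttgctcaagccgg
Slc38a6, chr12:74413109-74413168, ratio 0.39: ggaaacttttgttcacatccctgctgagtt
Slc38a6, chr12:74452745-74452804, ratio -0.68: aagctttaatgatgatcctgttctccaatt
The dimmer Slc7a5 probe had ratios of -0.58, 0.81 and -0.50, and was above background in 2 of 3 mutant and 3 of 3 wild type samples. The dimmer probe of Slc38a6, an amino acid carrier relative, had -1.43, 0.36 and -0.98, where the brighter one had 0.39, 0.33 and 0.45. In both genes the dimmer probe had another sign on replicate 2 than on the other arrays. The dimmer probe of Slc36a4 was well above background in 0 of 3 mutant and 3 of 3 wild type samples. Its ratios of -0.05, -0.89 and 0.45 had both signs, with a mean of -0.16 (limma adjusted p = 0.811 over all kept probes), against -1.16 for the brighter probe. The bound computed for it, 1.12-fold lower in the mutant, was no stricter than this mean, and without replicate 2 no bound was left. For Slc16a7 the other probe was above background in none of the 6 samples, so the highest ratio among the members rests on a single probe.

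**Figure D4:**
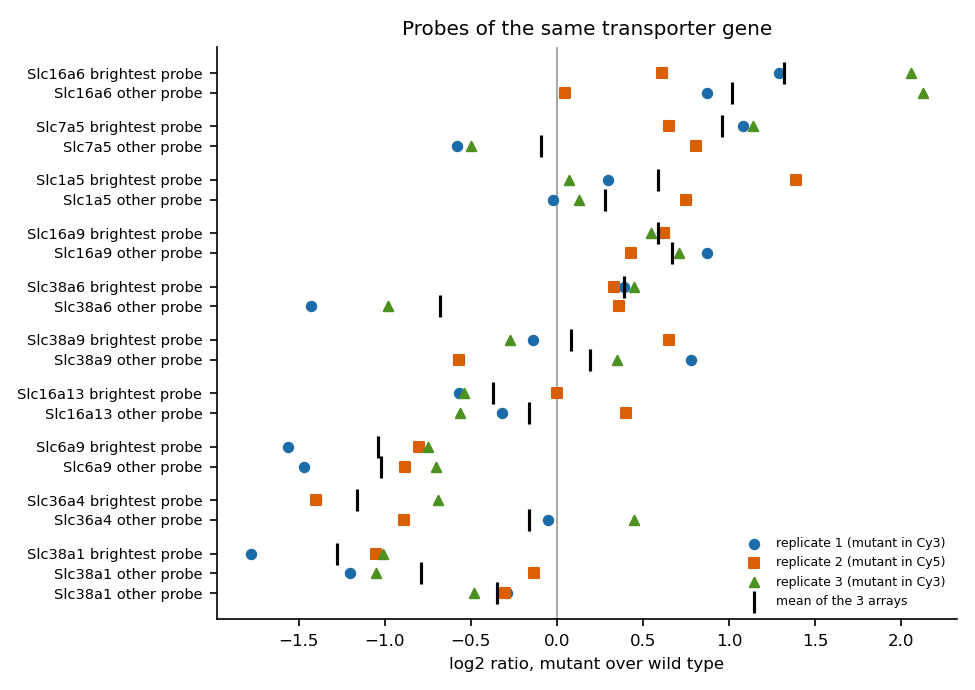
Log2 ratio of mutant over wild type on each array (horizontal axis) for each kept probe of the 10 members with several, brightest probe first, with a black bar at the mean. The bars of Slc7a5 (0.96 and -0.09) and Slc38a6 (0.39 and -0.68) lie on opposite sides of 0.

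The 36 members that were not tested were mostly dim in both genotypes. Of these, 7 were well above background in none of the 6 samples, 17 in 1 or 2 and 12 in 3 or 4. They include brain and kidney carriers such as Slc6a3 for dopamine, Slc6a19 for neutral amino acids and Slc1a2 for glutamate. Their mean ratios ran from -1.25 to 0.76, and 17 of the 36 had the same sign on all 3 arrays, where 44.3% of all genes tested did. Only Slc38a8 was beyond 1 in size, at -0.99, -0.41 and -2.35, and it was above background in 2 of 3 samples of each genotype. A ratio of such probes compares signals near background, and a difference was not detectable there.

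Other genes of nutrient use were taken from lists of amino acid synthesis and use, amino acid sensing, glycolysis, and partners of the carriers. Of the amino acid synthesis and use list 25 of 28 genes were tested, and limma called 0. At an unadjusted p of 0.05, 10 were higher and 3 lower (52%, against 22.7% of all genes). Its median ratio was 0.74, against 0.03 over all genes and -0.01 among the carriers, and it was 0.45 without replicate 2, 0.43 without the filter on dim probes and 0.39 with median centring, where that of all genes was -0.22. Ass1, the arginine synthesis enzyme argininosuccinate synthase, had a ratio of 1.71 ± 0.26 (adjusted p = 0.058). Cbs and Cth, which make cystathionine and cysteine, had 1.79 ± 0.33 (adjusted p = 0.07) and 1.49 ± 0.31 (adjusted p = 0.0829), and Tdh, the threonine dehydrogenase that mouse embryonic stem cells depend on, had 1.62 ± 0.26 (adjusted p = 0.06). Ratios of the opposite sign were found for Aldh18a1 (-0.74) and Pycr1 (-0.86) of proline synthesis.

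The genes that sense amino acids for mTORC1 had a median of -0.14 over 19 of 20 tested. That median was -0.07 without replicate 2 or with a dye term and -0.45 with median centring, where that of all genes was -0.22. Limma called 0 of these genes, and 1 was higher and 0 lower at an unadjusted p of 0.05 (5.26%, against 22.7% of all genes). Of the 17 genes of glucose use and lactate, all tested, 0 were called. At an unadjusted p of 0.05, 3 were higher and 0 lower (17.6%, against 22.7% of all genes). The median was 0.26, with 0.16 without replicate 2, 0.39 without replicate 1, 0.40 without replicate 3 and 0.45 with a dye term. It was 0.04 with median centring, where that of all genes was -0.22. Ldhb, the lactate dehydrogenase subunit linked to lactate use, had a ratio of 1.57 ± 0.24 (adjusted p = 0.058, limma), and Pfkp, a phosphofructokinase of platelet type, 1.49 ± 0.24 (adjusted p = 0.0606, limma). Of the 5 partner and regulator genes 0 were called, with 0 higher and 3 lower at an unadjusted p of 0.05 (60%, against 22.7% of all genes). Embigin, encoded by Emb and known as the partner that carries Slc16a7 to the cell surface, had signals of 12.79, 13.94 and 12.88 in mutant samples, against 14.75, 16.44 and 14.30 in wild type samples. These did not overlap, and its ratio of -1.96 ± 0.30 (limma adjusted p = 0.058) had the opposite sign to that of Slc16a7. Atf4, the factor whose motif was searched above, had -0.96 ± 0.26 (adjusted p = 0.119, limma). Txnip, which removes glucose carriers from the surface, had -0.71, and basigin, encoded by Bsg and the partner of Slc16a1 and Slc16a3, had -0.56 with a ratio of 0 on replicate 3.

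**Figure D5:**
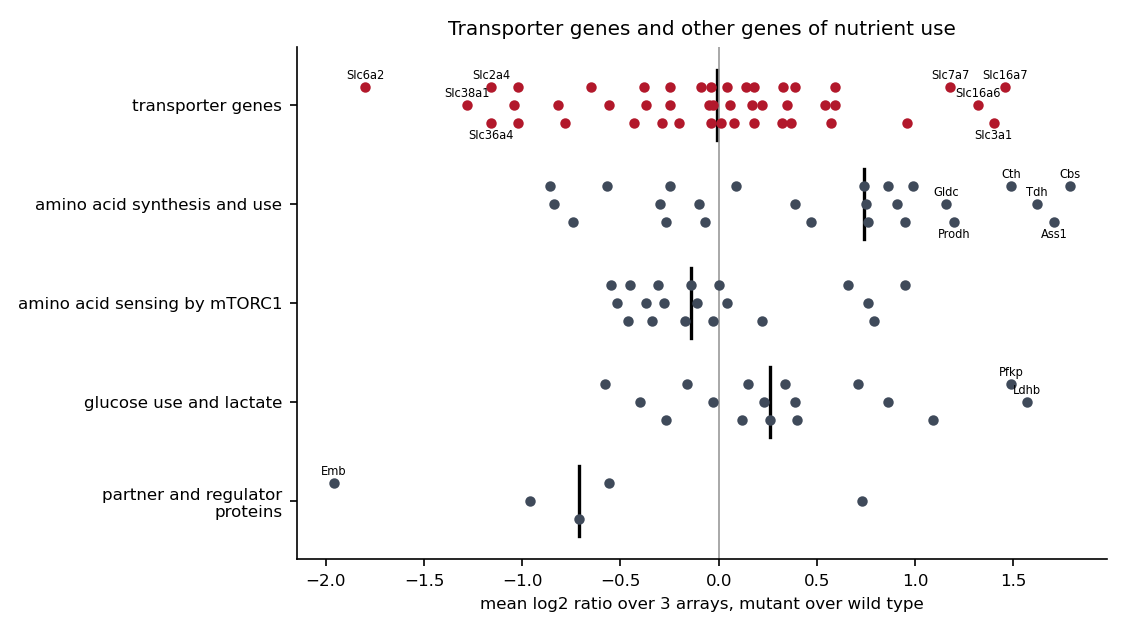
Mean log2 ratio over the 3 arrays (horizontal axis) of each tested carrier and of each tested gene of the other lists (rows, spread vertically for legibility), with a black bar at the median. The carriers centre on -0.01 and amino acid synthesis and use on 0.74.

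Markers of cell types also differed between the genotypes, and fewer cells of a type and less RNA per cell cannot be told apart in these whole samples. Summed on the signal scale and given as log2, the 8 pluripotency markers were at 17.14 to 18.38 in mutant samples and 14.77 to 15.94 in wild type samples, and 2 of the 8 were called higher by limma. Dppa5a alone, at 17.64, 16.42 and 17.75 in mutant samples against 15.11, 13.71 and 14.98 in wild type samples, lay close to these sums. Nanog had a mean ratio of 0.08 with both signs, and Tdgf1 one of 1.25 with -0.21 on replicate 2. The 14 extraembryonic endoderm markers summed to 14.53 to 17.45 in mutant samples and 17.94 to 19.58 in wild type samples, with 1 of 14 called lower. Heart muscle markers stood at 11.74 to 12.26 in mutant samples and 12.77 to 14.57 in wild type samples (1 of 8 called lower, Myl3). Within this list Myh6 and Tnnt2 had ratios of the other sign, 1.81 (limma adjusted p = 0.0716) and 0.19. Myl3 signals were 7.31, 10.49 and 8.75 in mutant samples, against 12.10, 14.15 and 12.14 in wild type samples, where they lay close to the sums of the list. Blood markers stood at 10.47 to 11.54 in mutant samples and 13.21 to 13.62 in wild type samples (1 of 7 tested called lower), with Gata1 at 0.72 and Klf1 at 0.10. Neural markers overlapped, at 11.70 to 12.43 in mutant samples and 11.89 to 16.10 in wild type samples. Of the 7 tested 0 were called and 4 were lower at an unadjusted p of 0.05 (57.1%, against 22.7% of all genes), with Tubb3 at 0.09. Endothelium markers lay at 9.64 to 10.06 in mutant samples and 10.39 to 10.56 in wild type samples. Of the 4 tested 0 were called and 2 were lower at that p (50%), with Pecam1 at 0.19. The neural marker Pax6 and the endothelial markers Tie1 and Emcn were too dim to be tested. The part of cell composition in the ratios of the carriers, such as the endoderm carrier Slc2a2, was not tested.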

How the data were processed

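Gene expression was measured on 2-colour Agilent arrays. Per the file headers, Feature Extraction 10.7.3.1 wrote the deposited mean and background intensity of each dye, not normalized, with probe positions on mm9. The authors' deposited value table holds log2 ratios, and the submitters' processing notes name limma. Those ratios run mutant over wild type when set against the scanner values, their column medians are -0.04, 0.01 and -0.01, and whether they were centred could not be told. The column of replicate 1 followed the scanner file of replicate 3 (r = 0.916) more closely than its own (r = 0.771), and that of replicate 3 followed replicate 1 (r = 0.983) more closely than its own (r = 0.842).

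Here R 4.3.3 and limma 3.58.1 were used, and matplotlib 3.10.9 for figures. Backgrounds were corrected with normexp (offset 50) and ratios by loess within arrays, with weight 0 for 1377 control spots. Outlier spots (317, 364 and 438 on the 3 arrays) and 7 spots of replicate 3 with a background over 10 times the array's median were left out. Spots were averaged per probe, and the brightest kept probe stood for a gene. An intercept was fitted to the ratios (lmFit, eBayes), its p-values were two-sided and adjusted by Benjamini and Hochberg's method, and calls needed an adjusted p under 0.05, on 2 residual and 3.04 prior degrees of freedom. An exact sign-flip test of 3 arrays could not give a p below 0.25. Signals per sample are channels after loess and Aquantile. Where all 3 samples of a genotype were dim, the fold is a bound against the higher of the probe's signal and the lowest signal of probes well above background, array by array, and open to dye bias. Each array pairs a mutant with a wild type sample: deviations of its channels correlated at 0.515, 0.016 and 0.462. The fit was tested on simulated data. Of the probes, 67.9% had an accession in the RefSeq table, which served for symbols outside the carriers.

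Members and gene lists were chosen with earlier results of these data known. Members named in the text were the 24 of smallest p, 24 with textbook roles, those whose probes differ by over 1 and those above background in 1 genotype alone, and the other 12 tested members are also given. Untested members named outside this rule were chosen after their values were seen. Some named items are not reported here. Alternatives were the scanner's processed signals, all spots in the background model, median centring, scaling, other filters, the mean over probes, a dye term, unpaired channels, the authors' values and each replicate left out.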

Additional observations from a re-analysis of the deposited data

How the results depend on the processing

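The number of called genes, 32 higher and 14 lower, moved under every alternative run. It became 240 and 139 with the scanner's processed signals, 0 and 0 with all spots in the background model, 4 and 3 with median centring, 63 and 46 with scaling between arrays, 1 and 1 without a filter on dim probes, and 3 and 1 with both genotypes required above background. It was 67 and 36 with the mean over a gene's probes, 2448 and 2299 with a dye term, 178 and 96 with unpaired channels (no replicate block), and 0 and 0 in the authors' deposited values. Leaving out a replicate gave 3 to 3962 higher and 2 to 3343 lower, the highest without replicate 2. The count of called members stayed at 0 except for 1 higher (Slc3a1) and 2 lower (Slc2a2 and Slc36a4) with the processed signals, 7 and 12 with a dye term, and 0 to 8 in each direction with a replicate left out, where 8 and 8 came without replicate 2. At an unadjusted p of 0.05 there were 14 members (30.4%, against 22.7% of all genes). Without replicate 1 there were 3 (6.52% of members, against 9.4% of all genes). There were 19 without replicate 2 (41.3% against 55.7%) and 5 without replicate 3 (10.9% against 8.7%). With every other alternative the members' share lay above that of all genes. It was 17.4% against 10.9% with all spots in the background model and 29.3% against 16.9% without a filter on dim probes. It was 26.5% against 20% with both genotypes required above background and 52.2% against 44.7% with a dye term. The rest gave 21.7% to 32.6% of members, against 16.4% to 25.6% of all genes. Replicates 1 and 3, which share a dye orientation, alone give the error where a dye term is fitted or replicate 2 is dropped, and the cause of the other changes was not tested.

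The members' median of -0.01 moved to -0.06 with all spots in the background model and to -0.21 with median centring, where that of all genes went to -0.22, and with a replicate left out it was 0.03 to 0.08. Of the 34 tested members that the naming rule took, 25 kept their sign under all alternatives that gave a value and 19 were called under at least 1. The rule took 24 of them for their small p. All 19 were called with a dye term or without replicate 2, where 30.8% and 47.3% of all genes were called. Apart from these, only Slc3a1, Slc2a2 and Slc36a4 were called, with the processed signals. Signs turned with median centring for Slc16a3 (-0.03), Slc2a3 (-0.10) and Slc38a9 (-0.22, and 0 with the processed signals), with the mean over probes for Slc38a6 (-0.15) and with a dye term for Slc3a2 (0.17). Leaving out a replicate gave a range of -0.11 to 0.47 for Slc2a3, -0.67 to 0.04 for Slc38a2, -0.20 to 0.25 for Slc38a9, -0.46 to 0.29 for Slc3a2, -0.06 to 0.03 for Slc6a6, -0.57 to 0.19 for Slc6a8 and -1.28 to 0.07 for Slc7a6. Signal over background limits the 36 members not tested and those dim in a genotype, such as Slc6a2.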
